A study of Mus musculus with 3 samples.

Results

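The 36 genes described here belong to glucose metabolism and the response to insulin in the liver, and were taken by name from the 32285 genes of the count tables. They comprise genes of gluconeogenesis, glycolysis and fructose use, glucose transport, glycogen, insulin signalling, the insulin-like growth factor axis, the response to glucagon and cAMP, amino acid breakdown and the pentose phosphate pathway. Single-nuclei RNA sequencing was performed on frozen liver of 3 male C57BL/6 J mice, with 1 library per mouse, prepared with 10x 3' chemistry. The ND mouse received a normal diet. The 2 STZ-HFHC mice received 0.2 mg of streptozocin (STZ), a toxin of the insulin-producing islets, at 3 days of age, followed from 4 weeks of age by a diet rich in fat and cholesterol (HFHC). Their livers are labelled as MASH-related liver fibrosis, and that of ND as normal. STZ and the diet were always given together in these mice, so their contributions cannot be told apart. The sample titles also carry 3rd-4-1-2 for ND and 2nd-1-1-3 and 2nd-1-2-3 for the STZ-HFHC mice. The labels do not say what these numbers mean. Any difference marked by 3rd and 2nd runs with the condition and cannot be told apart from it. The sources used here give neither the age of the sequenced mice at harvest nor whether they had been fasted, and blood glucose and insulin were not analysed here. The 1 ND mouse gives its group no spread of its own, so the conditions were compared without a test, and every difference below compares these mice.

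Between meals, hepatocytes release glucose that they make by gluconeogenesis or take from glycogen. Glucagon, which acts through cAMP, and glucocorticoids raise gluconeogenic enzymes. After a meal, insulin signals through its receptor, IRS proteins, PI3-kinase and AKT, which excludes the transcription factor FOXO1 from the nucleus, lowers gluconeogenic transcription and favours glycogen storage and glycolysis. Loss of islets lowers the insulin that reaches the liver.

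Pck1, G6pc and Igfbp1 are textbook genes that insulin represses, and their promoters are shown beside those of Pfkfb3, Ppp1r3c and Igfbp2, members that passed the fold rule described below. Foxo1, Trib3 and Tkt also passed, but their windows held none of the motifs searched and are not shown. Gys2 and Ppp1r3b passed too and had no window. The 250 bases before each start annotated in RefSeq (build GRCm38.p6) are printed 5′ to 3′ on the strand of the gene. Capitals mark TGTTTTG, a core of insulin response elements, ACGTCA, a core of cAMP response elements, and CACGTG, an E-box, each searched on both strands together with the FOXO consensus TGTTTAC. The windows are chr2:173152823-173153072 on the plus strand for Pck1, chr11:101367466-101367715 on the plus strand for G6pc and chr11:7197537-7197786 on the plus strand for Igfbp1. For Pfkfb3, which has 2 annotated starts, they are chr2:11553930-11554179 and chr2:11502091-11502340 on the minus strand. They are chr19:36736605-36736854 on the minus strand for Ppp1r3c and chr1:72824230-72824479 on the plus strand for the outer of 2 starts of Igfbp2. The window of the inner Igfbp2 start held none of the motifs and is not shown.
Pck1: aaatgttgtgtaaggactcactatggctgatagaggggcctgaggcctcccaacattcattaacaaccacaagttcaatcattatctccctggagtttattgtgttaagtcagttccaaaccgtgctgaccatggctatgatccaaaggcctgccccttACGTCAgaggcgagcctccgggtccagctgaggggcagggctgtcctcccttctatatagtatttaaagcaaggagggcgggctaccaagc
G6pc: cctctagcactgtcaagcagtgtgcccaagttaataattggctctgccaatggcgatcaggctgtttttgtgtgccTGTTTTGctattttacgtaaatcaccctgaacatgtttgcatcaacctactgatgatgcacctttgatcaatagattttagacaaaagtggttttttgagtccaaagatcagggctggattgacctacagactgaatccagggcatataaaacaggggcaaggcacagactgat
Igfbp1: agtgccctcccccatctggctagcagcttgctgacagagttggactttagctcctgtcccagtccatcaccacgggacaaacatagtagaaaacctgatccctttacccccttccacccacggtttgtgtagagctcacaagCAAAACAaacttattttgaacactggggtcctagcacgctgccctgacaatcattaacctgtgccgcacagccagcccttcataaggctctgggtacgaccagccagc
Pfkfb3, outer start: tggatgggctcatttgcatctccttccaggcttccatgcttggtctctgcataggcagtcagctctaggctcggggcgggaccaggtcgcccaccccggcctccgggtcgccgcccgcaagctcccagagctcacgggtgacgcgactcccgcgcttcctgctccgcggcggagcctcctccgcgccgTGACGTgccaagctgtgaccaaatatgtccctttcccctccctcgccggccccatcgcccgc
Pfkfb3, inner start: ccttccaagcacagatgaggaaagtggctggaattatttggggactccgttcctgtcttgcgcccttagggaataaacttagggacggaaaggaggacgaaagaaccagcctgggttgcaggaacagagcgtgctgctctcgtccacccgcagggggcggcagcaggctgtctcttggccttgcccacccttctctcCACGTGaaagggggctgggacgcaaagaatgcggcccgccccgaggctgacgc
Ppp1r3c: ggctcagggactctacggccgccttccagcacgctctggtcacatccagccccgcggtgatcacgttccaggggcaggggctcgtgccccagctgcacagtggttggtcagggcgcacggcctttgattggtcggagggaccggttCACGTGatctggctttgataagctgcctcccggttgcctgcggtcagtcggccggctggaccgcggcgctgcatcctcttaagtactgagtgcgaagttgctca
Igfbp2: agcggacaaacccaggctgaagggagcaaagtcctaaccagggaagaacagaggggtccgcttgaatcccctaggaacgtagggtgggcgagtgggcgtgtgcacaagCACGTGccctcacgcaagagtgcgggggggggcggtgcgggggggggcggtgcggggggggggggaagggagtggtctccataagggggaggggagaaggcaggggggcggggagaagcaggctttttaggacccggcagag
Of the 36 members, 29 had a window in the table. TGTTTTG was found in 5 of these 29 (G6pc, Gckr, Irs1, Irs2 and Igfbp1) and in 5.56% of all 32851 windows. ACGTCA was found in 3 (Pck1, Pfkfb3 and Ppp1r3g) and in 6.47% of all windows, and CACGTG in 8 and in 6.02% of all windows. TGTTTAC was found in 0 of the 29 members and in 3.17% of all windows. Members can have several windows, so the 2 shares have different denominators, and a match is a description of the letters only. The genes that share a motif did not share a direction, as the values of Pck1, Pfkfb3 and Ppp1r3c below show.

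After filtering on 200 to 5000 genes and at most 5% mitochondrial counts, 8494 nuclei from the ND mouse and 8921 and 10921 from the STZ-HFHC mice were clustered without the 36 members. Hepatocyte-like clusters held 5403, 2748 and 2833 nuclei, with a median of 4020, 7753 and 6608 UMIs per nucleus. Hepatocyte-like nuclei of ND and of the STZ-HFHC mice lay in separate clusters, except for a small cluster led by interferon-induced genes such as Rsad2 and Ifit1. A further cluster with hepatocyte genes was left unnamed, because the T cell marker Themis and no hepatocyte marker was among its top 10 genes. This cluster held 0.0353% of ND nuclei and 3.95 and 19.2% of those of the STZ-HFHC mice. Unnamed clusters, this cluster included, held 0.907% of ND nuclei and 21.7 and 31.3% of those of the STZ-HFHC mice, and were counted in no class. The others raised markers of different classes together or had mostly mitochondrial or globin genes among their top 10. Hepatocyte markers were abundant outside hepatocyte-like nuclei: 10 of them, Alb included, reached 66.5 to 94.3% of their hepatocyte-like level in the other classes of ND. In those of the STZ-HFHC mice they reached 35.4 to 85.8%. Whether these levels came from free RNA or from doublets, which were kept, was not tested. Free RNA can be part of the levels in hepatocyte-like nuclei too. Its part in their ratios of STZ-HFHC to ND was not tested. The summed level of the same 10 markers in hepatocyte-like nuclei was 23788, 16698 and 19634 CPM in ND, STZ-HFHC 1 and STZ-HFHC 2. That of 12 macrophage markers there was 53.4, 91.1 and 80.1, and that of 10 monocyte markers 3.04, 14.0 and 10.8. That of 12 T cell markers was 37.6, 269.6 and 275, of which Themis made up 27.3, 257 and 260.2 and the other 11 together 10.3, 13.1 and 14.5. That of 8 cholangiocyte markers was 125, 319 and 175.

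All 36 members had at least 50 UMIs in hepatocyte-like nuclei over the 3 libraries. Levels are given as CPM, the UMIs of a gene per 1000000 UMIs of the same nuclei, always with STZ-HFHC 1 before STZ-HFHC 2. A gene was said to pass the fold rule when its CPM was at least 2-fold higher, or at least 2-fold lower, in both STZ-HFHC mice than in ND. As higher, it was passed by 5 members, Pfkfb3, Trib3, Foxo1, Gys2 and Tkt, beside a background of 8.15% of all 14425 genes. As lower, it was passed by 3 members, Ppp1r3c, Ppp1r3b and Igfbp2, beside a background of 5.16%. As shares of the 36 members these were 13.9% and 8.33%, and the other 28 members passed in neither direction. The members were chosen with earlier results of these data known, so a share above the background is a description only. The median log2 ratio of the members, averaged over the 2 mice, was 0.066, beside 0.089 for all genes. The ND value lay outside the range of the 2 STZ-HFHC mice for 27 of the 36 members, and for 11926 of all 14425 genes. Under size factors, the ratios of the 2 mice shifted by 0.12 and 0.13 on the log2 scale, and the same 8 members passed.

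**Figure D1:**
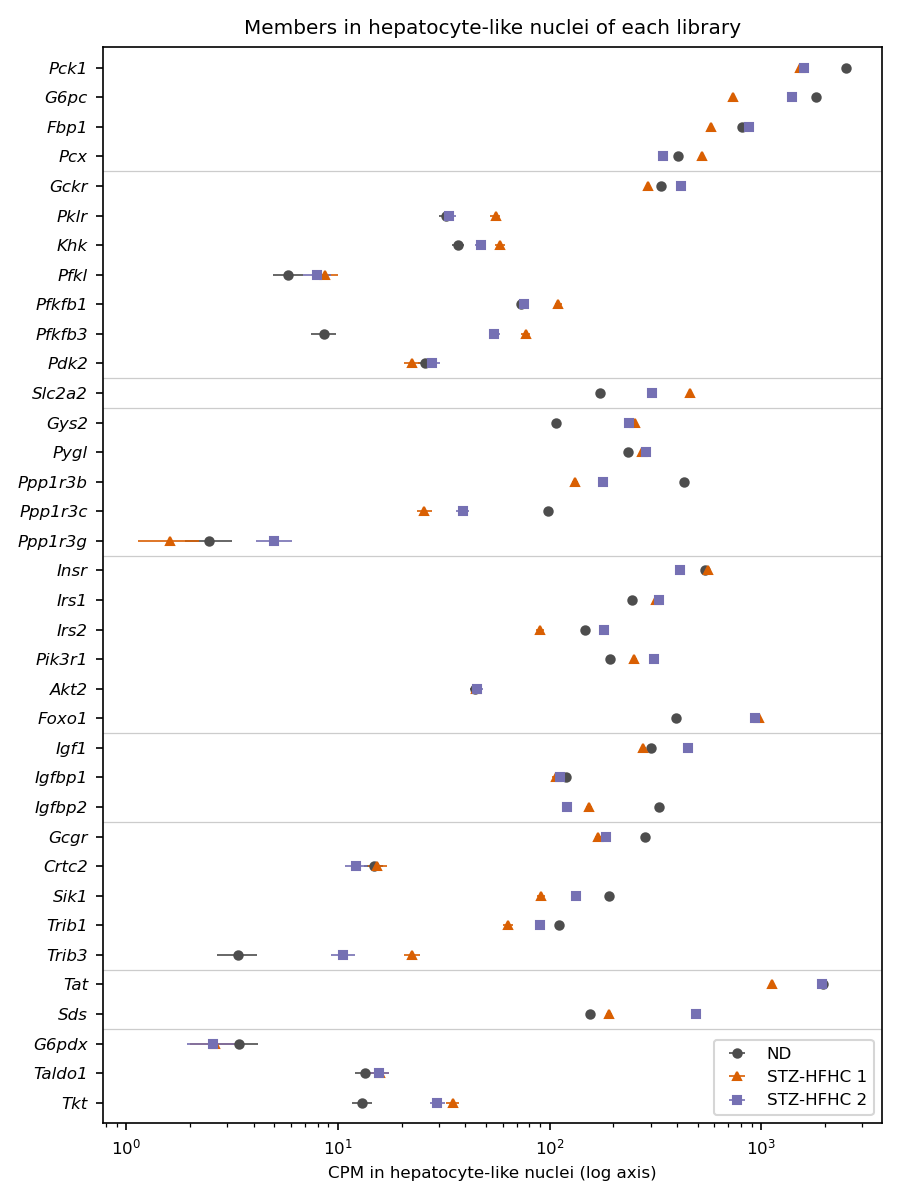
CPM of each member in hepatocyte-like nuclei of ND (circles), STZ-HFHC 1 (triangles) and STZ-HFHC 2 (squares), on a log axis, with exact Poisson 95% intervals, and with lines between functional groups. Foxo1 stands at 395 CPM in ND and at 979.9 and 929.8 in the STZ-HFHC mice, while Ppp1r3b stands at 430.4 in ND and at 132 and 178 in the others.

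No gluconeogenic member was higher than ND in both STZ-HFHC mice. Pck1, which encodes the enzyme that commits carbon to gluconeogenesis, was measured at 2512 CPM in ND, against 1533 and 1585 in the STZ-HFHC mice. Both STZ-HFHC mice were below ND and close to each other, averaging -0.69 ± 0.034 (SD, n = 2) on the log2 scale, short of 2-fold. G6pc, the phosphatase that releases free glucose, was at 1811 CPM in ND, against 739 and 1400.3 in the STZ-HFHC mice, so that STZ-HFHC 1 was past 2-fold lower and STZ-HFHC 2 was not. Fbp1 and Pcx, which act at the fructose bisphosphate and pyruvate steps, had ND between the 2 STZ-HFHC mice. Fbp1 was at 809.8, 576 and 879 CPM in ND, STZ-HFHC 1 and STZ-HFHC 2, and Pcx at 403, 526 and 343 CPM in the same order. None of the 4 gluconeogenic members passed the fold rule.

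The 2 enzymes of amino acid breakdown, which supply carbon to gluconeogenesis, separated the 2 STZ-HFHC mice. Sds, serine dehydratase, was at 155 CPM in ND, against 191 and 492 in the STZ-HFHC mice, with log2 ratios of 0.30 and 1.66. Tat, tyrosine aminotransferase, was at 1951 CPM in ND, against 1127 and 1930.3 in the STZ-HFHC mice. In both genes STZ-HFHC 2 exceeded STZ-HFHC 1, and neither gene passed the rule.

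Among the 7 members of glycolysis and fructose use, Pfkfb3 stood out. Pfkfb3 makes fructose 2,6-bisphosphate, the activator of phosphofructokinase, and was at 8.58 CPM in ND, against 77.1 and 54.7 in the STZ-HFHC mice. Both STZ-HFHC mice were far above ND, at folds of 8.99 (95% interval 7.81 to 10.4) and 6.38 (5.52 to 7.41), from exact binomial intervals that cover counting error only. After thinning to 1000 UMIs per nucleus, 0.773, 6.39 and 4.89% of hepatocyte-like nuclei of ND, STZ-HFHC 1 and STZ-HFHC 2 had a Pfkfb3 UMI. Pfkfb1, the liver form of the same enzyme family, was at 73.5, 109.9 and 75.8 CPM in that order, with STZ-HFHC 2 next to ND. Pklr, liver pyruvate kinase, and Khk, which phosphorylates fructose, had log2 ratios of 0.78 and 0.051 and of 0.66 and 0.35, short of 2-fold, with STZ-HFHC 2 next to ND for Pklr. Pfkl, liver phosphofructokinase, had log2 ratios of 0.58 and 0.46 on only 523 UMIs. Gckr, which holds glucokinase in the nucleus, and Pdk2, which switches off pyruvate dehydrogenase, had ND between the 2 STZ-HFHC mice.

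Slc2a2, the glucose transporter GLUT2 of hepatocytes, was at 172 CPM in ND, against 461 and 305 in the STZ-HFHC mice. Both STZ-HFHC mice were above ND, but only STZ-HFHC 1 exceeded 2-fold, with folds of 2.67 and 1.77, and the gene therefore did not pass.

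Of the 5 glycogen members, 1 passed the rule as higher, 2 as lower and 2 in neither direction. Gys2, liver glycogen synthase, was at 108 CPM in ND, against 253 and 237 in the STZ-HFHC mice, and the folds of 2.35 and 2.20 put it among the higher genes. Ppp1r3b, a subunit that brings protein phosphatase 1 to glycogen and activates glycogen synthase, was at 430.4 CPM in ND, against 132 and 178 in the STZ-HFHC mice. Ppp1r3c, another glycogen-targeting subunit of this phosphatase, was at 98.1 CPM in ND, against 25.5 and 38.8 in the STZ-HFHC mice. The 2 STZ-HFHC mice lay below ND in both subunits, at 0.307 and 0.413 of the ND level for Ppp1r3b and 0.260 and 0.396 for Ppp1r3c. After thinning, 34.3, 11.2 and 15.1% of hepatocyte-like nuclei of ND, STZ-HFHC 1 and STZ-HFHC 2 had a Ppp1r3b UMI. Ppp1r3g, one more subunit, split the mice, at 2.46, 1.60 and 4.98 CPM in the same order, on 206 UMIs in all. Pygl, liver glycogen phosphorylase, differed from ND by less than 1.5-fold, with log2 ratios of 0.21 and 0.29.

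Of the 6 insulin signalling members, only Foxo1 passed the rule. Foxo1, the transcription factor restrained by insulin, was at 395 CPM in ND, against 979.9 and 929.8 in the STZ-HFHC mice, averaging 1.27 ± 0.053 (SD, n = 2) on the log2 scale. The STZ-HFHC mice lay close together and well above ND, and the share of thinned nuclei with a UMI was 31.3, 57.7 and 57.0% in the 3 libraries. Insr, the insulin receptor, was at 545, 563 and 411 CPM in ND, STZ-HFHC 1 and STZ-HFHC 2, with ND between the STZ-HFHC mice. Irs2, the receptor substrate that insulin represses in liver through FOXO1, likewise had ND in the middle, at 147, 89.9 and 179.98 CPM. Irs1, the other receptor substrate, and Pik3r1, the regulatory subunit of PI3-kinase, were above ND in both mice by less than 2-fold, with log2 ratios of 0.37 and 0.42 and of 0.39 and 0.69. Akt2, the kinase downstream, was at 44.5, 45.0 and 45.4 CPM, and its log2 ratios of 0.018 and 0.031 were below the median of all genes.

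In the insulin-like growth factor group, Igfbp2 passed the rule and Igfbp1 was close to ND. Igfbp2, a circulating binding protein made by hepatocytes, was at 327 CPM in ND, against 154 and 121 in the STZ-HFHC mice, both STZ-HFHC mice lying below ND at 0.471 and 0.371 of its level. Igfbp1, a binding protein that insulin represses, was at 119, 107 and 111 CPM in ND, STZ-HFHC 1 and STZ-HFHC 2. Igf1 itself, the hormone secreted by liver under growth hormone, was at 299.9, 277 and 453 CPM in the same order, with ND between the STZ-HFHC mice.

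Among the 5 members of the glucagon and cAMP response, Trib3 was higher and the other genes were lower or near ND. Trib3, a pseudokinase that binds AKT and is induced by cell stress, was at 3.35 CPM in ND, against 22.3 and 10.6 in the STZ-HFHC mice, from 86, 530 and 223 UMIs. The mice differed by more than 2-fold in this gene, with folds of 6.66 (95% interval 5.29 to 8.47) and 3.16 (2.45 to 4.09). Gcgr, the glucagon receptor, was below ND in both mice, at 281 CPM in ND, against 169.7 and 185 in the STZ-HFHC mice. Sik1, a kinase induced by cAMP that restrains CREB coactivators, was at 192, 90.9 and 133 CPM and Trib1, a relative of Trib3, at 111, 63.5 and 90.04 CPM, both highest in ND without passing the rule. Crtc2, the CREB coactivator itself, was at 14.8, 15.3 and 12.2 CPM.

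In the pentose phosphate group, Tkt, transketolase, passed the rule, at 12.9 CPM in ND, against 34.8 and 29.5 in the STZ-HFHC mice and folds of 2.69 and 2.28. The macrophage markers given above were also higher in hepatocyte-like nuclei of both STZ-HFHC mice, and Tkt was more abundant in macrophage-like than in hepatocyte-like nuclei of these mice. Whether they had a part in the Tkt values was not tested. Taldo1, transaldolase, had log2 ratios of 0.23 and 0.22, and G6pdx, the entry enzyme of the pathway, -0.37 and -0.40 on 203 UMIs. By the share of thinned nuclei with a UMI, Taldo1 was instead highest in ND, at 1.74, 1.25 and 1.49% in ND, STZ-HFHC 1 and STZ-HFHC 2.

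**Figure D2:**
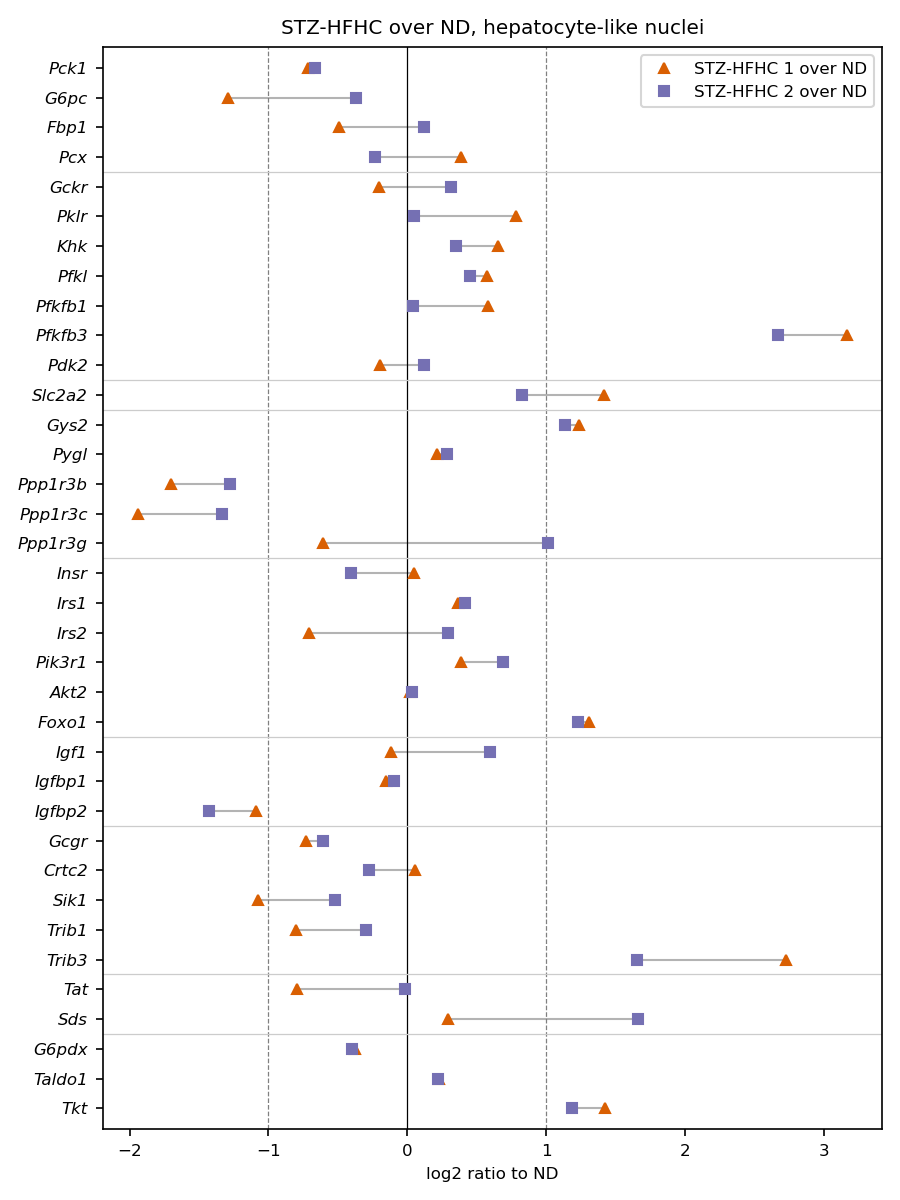
Log2 ratio to ND of each member in hepatocyte-like nuclei of STZ-HFHC 1 (triangles) and STZ-HFHC 2 (squares), joined by a line, with dashed lines at 2-fold. On the plot 5 members lie beyond the right line in both mice and 3 beyond the left line, and Pfkfb3 lies farthest right at 3.17 and 2.67.

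The 2 STZ-HFHC mice were set against each other for the members as well. The median gap between the mice was 0.44 on the log2 scale over the members and 0.26 over all genes, a description with no test. Sds, Ppp1r3g, Trib3, Irs2 and G6pc had a gap close to or above 0.92, whereas those of Akt2, Taldo1 and G6pdx were below 0.04. Pfkfb3, Trib3, Slc2a2 and Pcx were higher in STZ-HFHC 1, and G6pc, Irs2, Tat, Sds and Igf1 in STZ-HFHC 2. The members that passed the rule had a gap of up to 0.60, apart from Trib3 at 1.08. The hepatocyte-like nuclei of the 2 mice also differed in their make-up by cluster. One cluster held 1620 and 369 nuclei of STZ-HFHC 1 and STZ-HFHC 2, and another held 681 and 1708. The part of this make-up in the gaps was not tested.

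Other genes of these pathways were counted from lists of pathway members, which were also chosen with earlier results known. Beside each count stand the shares of all 14425 genes given above, 8.15% higher and 5.16% lower. Of 21 other glycogen genes with at least 50 UMIs, 3 were higher and 1 lower, or 14.3% and 4.76%. Ugp2, which makes UDP-glucose for glycogen synthesis, was at 295, 1112 and 1124 CPM in ND, STZ-HFHC 1 and STZ-HFHC 2, and Gbe1, the branching enzyme, at 431, 1521 and 992 CPM. Pygb, the brain form of glycogen phosphorylase, was higher on 262 UMIs, and Stbd1, a glycogen-binding protein, lower at folds of 0.385 and 0.385. The other 17 passed in neither direction.

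Of 43 other genes of glycolysis, gluconeogenesis and fructose use, 5 were higher and 3 lower, or 11.6% and 6.98%, beside 8.15% and 5.16% of all genes. Gpi1, which interconverts glucose and fructose phosphates, had folds of 2.53 and 2.22, and Pfkp, Hk3 and Hk2, sugar kinases that are not the main forms of hepatocytes, were higher on 202, 102 and 50 UMIs. Hk3, and Pik3cd below, are known from immune cells. The summed macrophage and monocyte markers were higher in the same nuclei of both STZ-HFHC mice, and so were T cell markers, with or without Themis. B cell markers, at 24.6, 27.1 and 40.8 CPM in ND, STZ-HFHC 1 and STZ-HFHC 2, and neutrophil markers, at 2.26, 3.71 and 6.21, were higher too. Dendritic, NK and plasma cell markers were not higher in both. The part of immune cell RNA in these values was not tested. Ldha, lactate dehydrogenase, was lower, at 142, 47.8 and 37.8 CPM in ND, STZ-HFHC 1 and STZ-HFHC 2. Gpd1, which reduces dihydroxyacetone phosphate to glycerol phosphate, and Pdp2, which activates pyruvate dehydrogenase, were lower at folds of 0.481 and 0.354 and of 0.497 and 0.417.

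Of 10 other pentose phosphate genes, 3 were higher and 1 lower, beside the same 8.15% and 5.16%. Rpia and Pgd, an isomerase and a dehydrogenase of the pathway, had folds of 3.01 and 2.29 and of 2.59 and 2.34, and Prps2, which makes phosphoribosyl pyrophosphate, was also higher. Dcxr, xylulose reductase, was lower at folds of 0.290 and 0.326.

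Of 48 other insulin and IGF signalling genes, 4 were higher and 1 lower, or 8.33% and 2.08%, so that the share of higher genes was near the 8.15% of all genes. Srebf1, the lipogenic transcription factor that insulin induces in hepatocytes, was at 12.6, 52.2 and 77.2 CPM in ND, STZ-HFHC 1 and STZ-HFHC 2. Pik3r3 and Pik3cd, subunits of PI3-kinase, and Eif4ebp1, a translation repressor, were higher as well, with folds of 2.30 and 3.65 for Pik3r3. Ceacam1, which promotes insulin clearance by the liver, was lower, at 46.0, 12.4 and 16.0 CPM.

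Of 34 other genes of the glucagon, cAMP and glucocorticoid response, 3 were higher and 0 lower by the fold rule, and the 8.82% of higher genes was likewise near the 8.15% of all genes. Ppargc1a, the coactivator PGC-1α that drives gluconeogenic transcription in fasting, was at 118, 359 and 675 CPM in ND, STZ-HFHC 1 and STZ-HFHC 2. Atf3, a stress-induced factor, had folds of 5.28 and 3.26, and Asns, asparagine synthetase, was higher on 51 UMIs. Ppargc1a and Foxo1, 2 regulators of gluconeogenic genes, were thus higher in mice whose Pck1 and G6pc levels were below ND. Neither Pck1 nor G6pc passed the fold rule, and Fbp1 and Pcx had ND between the 2 STZ-HFHC mice. The summed level of the 10 hepatocyte markers was also below ND in both mice, at 23788, 16698 and 19634 CPM. A link between these values was not tested.

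**Figure D3:**
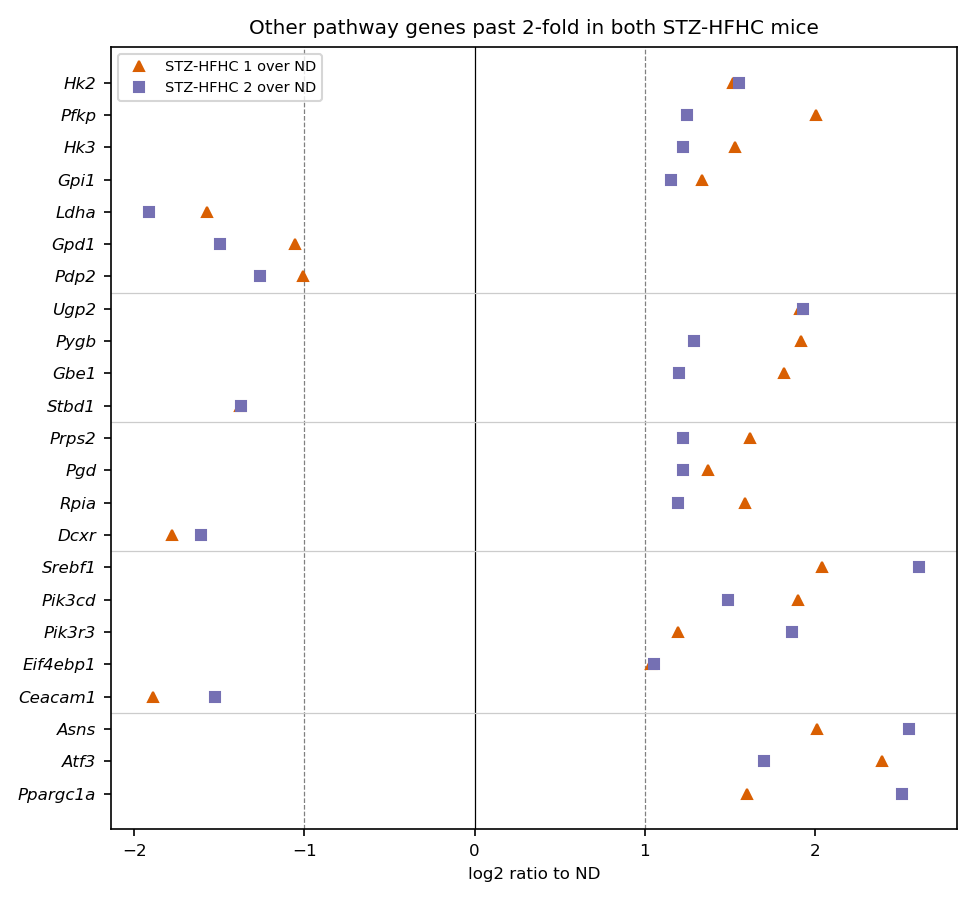
Log2 ratio to ND in STZ-HFHC 1 (triangles) and STZ-HFHC 2 (squares) for the genes of the 5 pathway lists that passed the fold rule, up to 4 in each direction per list, with dashed lines at 2-fold. The genes were selected for this ratio, and Srebf1 at 2.04 and 2.61 and Ugp2 at 1.92 and 1.93 lie among those farthest from 0.

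The members that passed were also read in the single clusters of hepatocyte-like nuclei, 3 clusters of ND and 3 of the STZ-HFHC mice. The small cluster led by interferon-induced genes, which held nuclei of all 3 libraries, was left out. The members had passed in the sums of these same nuclei, so their separation by cluster is a description and adds no support. Clusters are not replicates. Foxo1 was at 358 to 417 CPM in the ND clusters and 728 to 1170.3 in the STZ-HFHC clusters of either mouse. Ppp1r3b was at 400.2 to 458 and 128 to 187, and Gys2 at 78.2 to 115 and 168 to 363. For these 3 genes every cluster of one condition lay on the same side of every cluster of the other, and so it was for Pfkfb3, Ppp1r3c, Trib3 and Tkt. The share of all genes that separate in this way is not given here, so the separation cannot be called particular to the members. Igfbp2 overlapped, with 105 to 359 in the ND clusters and 75.4 to 218 in the others. With the unnamed cluster that carried Themis counted as hepatocyte-like, the same 8 members passed.

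Hepatocytes along the blood path from portal to central vein divide glucose tasks between them, with gluconeogenesis and amino acid use near the portal vein and glycolysis near the central vein. Hepatocyte-like nuclei were ranked in each library by 12 periportal and 12 pericentral genes, none of them a member, cut into 3 ranges of equal size, and the outer ranges were compared. Of the 36 members, 1 was at least 2-fold higher in the periportal range of all 3 libraries, beside 0.782% of 13554 genes. Another 1 was at least 2-fold higher in the pericentral range, beside 1.24%. Within 0.1 SD of a cut lay 2296, 843 and 832 nuclei of ND, STZ-HFHC 1 and STZ-HFHC 2, so the ranges are ranges and not cell types.

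Sds was the periportal member, at 301 and 50.5 CPM in the periportal and the pericentral range of ND, against 420.01 and 41.8 in STZ-HFHC 1, and 755 and 97.9 in the other mouse. The higher Sds level of STZ-HFHC 2 was found in both ranges. Pfkfb3 was the pericentral member, at 4.15 and 16.3 in the periportal and the pericentral range of ND, against 50.3 and 117 in STZ-HFHC 1, and 30.03 and 102 in the other mouse. Igf1 leaned to the periportal side, with log2 ratios of 0.86, 1.49 and 1.86 in the 3 libraries, of which ND missed 2-fold. Irs1 and Pfkfb1 leaned to the pericentral side in the 3 libraries, with log2 ratios of -1.02, -0.95 and -0.76 for Irs1 and -0.73, -0.97 and -0.72 for Pfkfb1. Of the 4 gluconeogenic members, Pck1, G6pc and Fbp1 were higher periportally in the 3 libraries by less than 2-fold, with Fbp1 at 0.85, 0.54 and 0.61. The sign was shared by the 3 libraries for 20 of 36 members and for 5981 of 13554 genes.

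**Figure D4:**
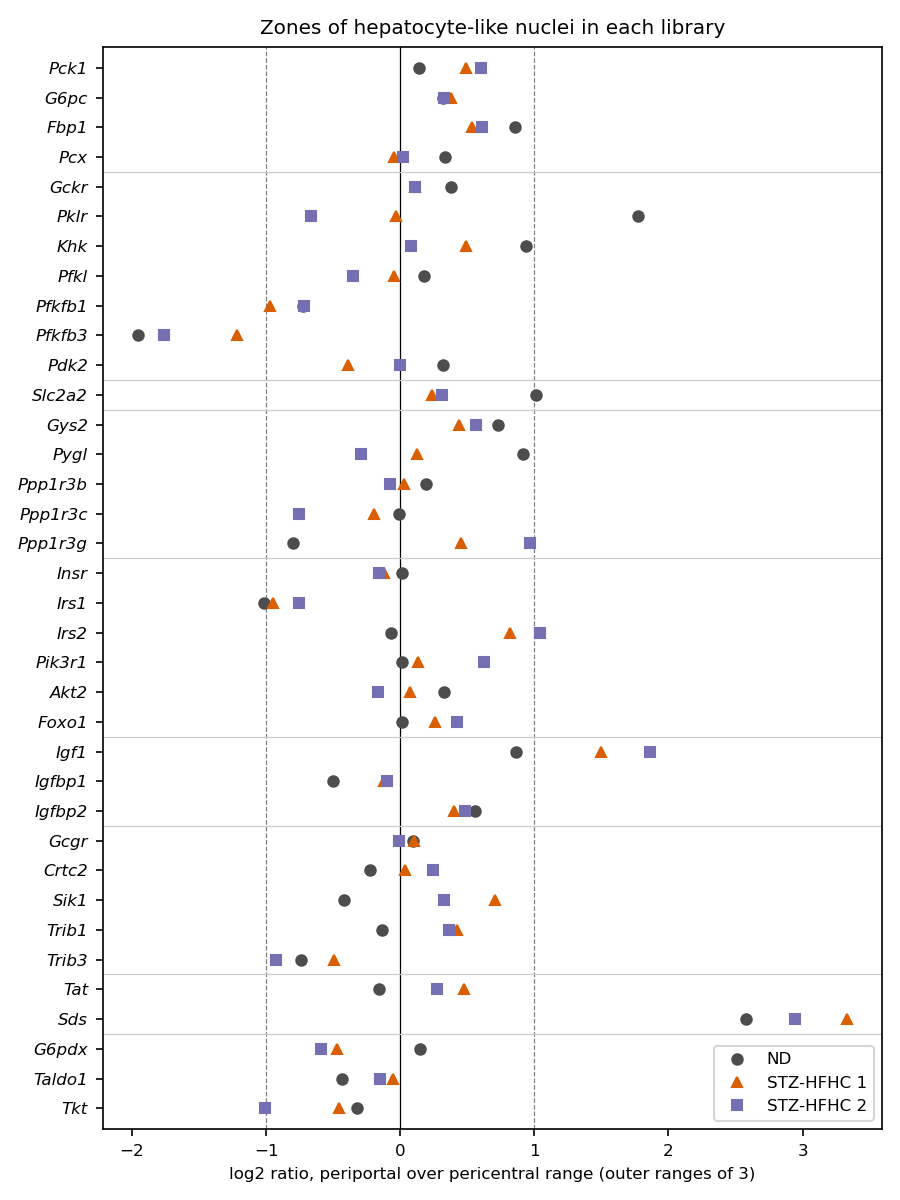
Log2 ratio of the periportal over the pericentral range of hepatocyte-like nuclei for each member in ND (circles), STZ-HFHC 1 (triangles) and STZ-HFHC 2 (squares), with dashed lines at 2-fold. Sds lies at 2.58, 3.33 and 2.95 and Pfkfb3 at -1.96, -1.22 and -1.76, while Pklr lies at 1.77, -0.034 and -0.67.

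For some members the difference between STZ-HFHC and ND depended on the range in which it was read. Pklr was at 52.8 and 15.4 CPM in the periportal and the pericentral range of ND, against 54.6 and 55.9 in STZ-HFHC 1, and 27.7 and 44.0 in the other mouse. In the pericentral range the log2 ratios to ND were 1.85 and 1.51, past 2-fold, and in the periportal range they were 0.050 and -0.93. Slc2a2 passed the rule in the pericentral range, with 1.80 and 1.18, and not in the periportal one, with 1.02 and 0.47. These differences between ranges were not tested. Pfkfb3, Gys2, Trib3 and Ppp1r3b passed in either range alone. Foxo1 had log2 ratios of 1.46 and 1.38 in the periportal and 1.21 and 0.97 in the pericentral range, just short of 2-fold in 1 mouse of the latter. Ppp1r3c and Tkt each passed in only 1 of the ranges, and Igfbp2 in neither, with -0.96 and -1.34 periportally and -0.80 and -1.26 pericentrally.

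In other classes, each member was read as a percent of its own hepatocyte-like level, and the median of these percents lay close to the percent of the hepatocyte marker list. In endothelial-like nuclei the median over the 36 members was 101% in ND, against 69.3 and 78.3% in the STZ-HFHC mice. The hepatocyte marker list stood at 88.2, 66.0 and 75.1% there. In macrophage-like nuclei the members' median was 97.6, 62.5 and 74.3%, beside 94.2, 58.5 and 75.4% for the list. Foxo1, as an example, stood at 102, 76.1 and 79.9% of its hepatocyte-like level in endothelial-like nuclei and at 101, 51.5 and 74.5% in macrophage-like nuclei. Levels of this kind cannot be told apart from free RNA, and ratios of STZ-HFHC to ND in the other classes are left out, except for Pfkfb3, which exceeded its hepatocyte-like level there, and Pklr, whose sign there differed from that in hepatocyte-like nuclei. The part of free RNA in the hepatocyte-like ratios was not tested either.

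A few members exceeded their hepatocyte-like level in other classes, with an interval above 100% in both STZ-HFHC mice. Pik3r1 stood at 146, 198 and 156% in stellate or fibroblast-like nuclei and 154, 178 and 146% in macrophage-like nuclei of ND, STZ-HFHC 1 and STZ-HFHC 2. Insr stood at 104, 127 and 124% in endothelial-like nuclei. Pfkfb3 exceeded the hepatocyte-like level in 5 classes, at 230.3, 121 and 142% in endothelial-like and 187, 161 and 143% in macrophage-like nuclei, and its 3 ND values among these and the stellate or fibroblast-like nuclei rested on 139, 16 and 171 UMIs. In macrophage-like nuclei, Tkt stood at 147, 220.1 and 167%, and Taldo1, G6pdx and Pfkl were also above 100% in both STZ-HFHC mice. Pfkfb3 was at least 2-fold higher than ND in both STZ-HFHC mice not only in hepatocyte-like but also in endothelial-like, stellate or fibroblast-like, macrophage-like, T or NK cell-like and B cell-like nuclei, the ND values of the last 2 resting on 14 and 13 UMIs. In the other 3 classes it was not, with log2 ratios of 0.98 and 0.81 in monocyte-like, 0.48 and 0.99 in cholangiocyte-like and -0.83 and 0.29 in mesothelial-like nuclei, on 5, 4 and 3 UMIs in ND. How much of this was free RNA shared by the classes was not tested.

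**Figure D5:**
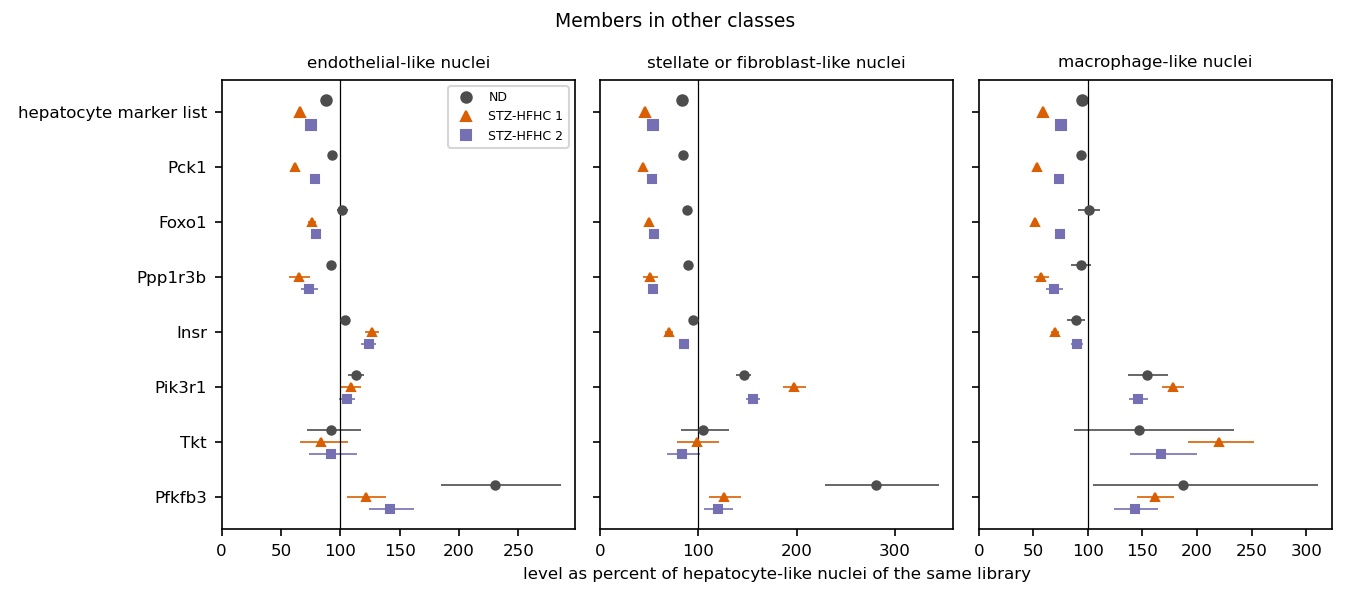
Level of the hepatocyte marker list and of 7 members in endothelial-like, stellate or fibroblast-like and macrophage-like nuclei, as a percent of the level in hepatocyte-like nuclei of the same library (vertical line at 100%), with exact binomial 95% intervals for single genes. Pck1, Foxo1 and Ppp1r3b lie near the marker list in each library, whereas Pik3r1 and Pfkfb3 lie to the right of it.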

How the data were processed

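Single-nuclei libraries of 1 ND and 2 STZ-HFHC mice were analysed. The authors deposited raw counts of UMIs, as 1 matrix per library, made per the labels with Cell Ranger 7.0.1 and the mm10 build, whose handling of intronic reads is not given in the sources used here. The deposited counts held 9424, 9923 and 11642 barcodes. Among the nuclei kept by the filter below, 20 to 27 barcodes were shared by a pair of libraries.

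Barcodes with 200 to 5000 genes and no more than 5% mitochondrial counts were used. Clustering used scanpy 1.11.5 without the members (2000 variable genes, 30 components, 15 neighbors, Leiden resolution 1). Clusters were named from marker lists, by a rule adjusted after the clusters had been seen. Of 10 hepatocyte markers, 7, 3 and 2 were raised in the 3 ND clusters of hepatocyte-like nuclei, and 0, 1 and 0 in the 3 STZ-HFHC clusters. Clusters with fewer than 3 raised were named by raised zone markers, or by a hepatocyte marker level above that of other named clusters. For the 3 STZ-HFHC clusters this level was 1.21, 1.47 and 0.72 times that of the others. The automatic threshold of Scrublet marked 0, 1 and 0 nuclei and did not work, so doublets were kept, and the highest 8% of scores left out as an alternative. UMIs were summed by class and library and given as CPM. Log2 ratios used 0.5 added to each count, and genes with at least 50 UMIs over the 3 libraries were counted. Exact intervals cover counting error only. No test was run, since the 1 ND mouse has no spread of its own, and nuclei are not replicates. The functions were tested on simulated data. The text names all 36 members and, from each pathway list, up to 4 genes higher and 4 lower with the largest smaller ratio. Members and lists were chosen with earlier results of these data known. Rsad2, Ifit1, Themis and Alb were named to describe clusters.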

Additional observations from a re-analysis of the deposited data

Results flagged for a closer look

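Pklr and Ppp1r3g differed between conditions in the sign of their zonal ratio. The log2 ratio of the periportal over the pericentral range was 1.77 for Pklr in ND, against -0.034 and -0.67 in the STZ-HFHC mice, from 1955 UMIs in both ranges. For Ppp1r3g it was -0.80, 0.46 and 0.97 in the same order, from 129 UMIs. In STZ-HFHC 1 the Pklr intervals of the periportal and the pericentral range overlapped, at 49.5 to 60.1 and 50.9 to 61.3 CPM. The Ppp1r3g intervals overlapped in each library. They rested on 13 and 23 UMIs in ND, 13 and 10 in STZ-HFHC 1, and 48 and 22 in STZ-HFHC 2. Pklr was also lower than ND in stellate or fibroblast-like nuclei of both STZ-HFHC mice, with log2 ratios of -1.18 and -1.62, while it was not lower in hepatocyte-like nuclei. The hepatocyte marker list stood at 83.1% of its hepatocyte-like level in stellate or fibroblast-like nuclei of ND and at 45.9 and 54.1% in those of the STZ-HFHC mice. Such Pklr levels cannot be told apart from free hepatocyte RNA. Each of these differences was noticed as opposite signs between groups and was not tested.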

How the results depend on the processing

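The 8 members past the fold rule between STZ-HFHC and ND numbered 6 to 11 under every alternative run. The same 8 passed with size factors, with nuclei thinned to 1000 UMIs, without high doublet scores, at Leiden resolutions of 0.5 and 2, with 5 added to each count, and, chosen after seeing the data, with the unnamed cluster carrying Themis added or the ND cluster rich in mitochondrial genes left out. Igfbp2 was lost without an upper limit on genes, Tkt with a mean of per-nucleus values and Gys2 over all nuclei without classes. With a 1.5-fold rule 11 passed. The count without 1 STZ-HFHC mouse was 10 to 11. The rule then asks for fewer mice, so none of the 8 could be lost. Foxo1, Ppp1r3c and Igfbp2 were lost in the pericentral range alone, and Tkt and Igfbp2 in the periportal range. For all genes, 1920 passed (1175 higher, 745 lower), 1052 after thinning, 3084 over all nuclei, 4802 with no minimum of UMIs and 3944 at 1.5-fold. The count was 2424 to 3582 without 1 STZ-HFHC mouse, the larger without STZ-HFHC 2. Size factors gave 976 higher and 980 lower, and thinning 518 and 534. The members' median log2 ratio, 0.066, became -0.059 with size factors, 0.18 without an upper limit on genes and -0.018 over all nuclei, so its sign is not settled. Of the zonal members Sds passed in every setting, whereas Pfkfb3 was lost on thinning, when 1 member passed, and Igf1 was gained with narrower outer ranges or without ND. For all genes, the zonal count of 274 became 112 on thinning and 505 with no minimum, and 337 to 445 without 1 library, with 433 without STZ-HFHC 1 and 445 without ND. The causes were not tested, except that thinning and the minimum alter the number of genes counted. Leaving out a library also asks the rule of fewer libraries, which by itself raises the count. No paired analysis was possible because the labels name no pairs of mice and there was 1 ND mouse. The direction by CPM and by the share of thinned nuclei with a UMI was the same for 29 of the 36 members and not for 7, Taldo1 among them. Depth limits Pfkl, Ppp1r3g, Trib3 and G6pdx, which had 38 to 530 UMIs per library, and Crtc2 and Taldo1, which had 257 to 379. It also limits the ratios of Tkt and Pfkfb3, whose ND values rested on 332 and 220 UMIs.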
